A study of Mus musculus with 16 samples.

Results

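The genes described are the 42 subunit genes of the ligand-gated channels for GABA, glycine and glutamate, chosen by symbol from a table of 24421 gene symbols: 19 GABA-A subunits (Gabra, Gabrb, Gabrg, Gabrd, Gabre, Gabrp, Gabrq and Gabrr genes), 5 glycine receptor subunits (Glra and Glrb), 4 AMPA (Gria), 5 kainate (Grik), 7 NMDA (Grin) and 2 delta (Grid) glutamate receptor subunits. They were measured by polyA RNA sequencing of total RNA from untreated lumbar dorsal root ganglia of C57BL/6 mouse embryos at embryonic day 13.5. There were 16 libraries in 4 groups of 4: ko-alpha3 (the knockouts of importin α3, Kpna4), KO-beta (embryos lacking the 3′ untranslated region of importin β1, Kpnb1), and the wild types labelled with each line, wt-alpha3 and WT-beta. Per the series' design text the 8 wild types served both projects, so each knockout was compared with all 8, and the 2 comparisons share their wild types. Each library carries its group's name and the number from its title, and the labels do not say whether libraries of a group came from separate embryos or pools, so every p below measures the spread between these libraries.

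GABA-A receptors are chloride channels of 5 subunits, most often alpha, beta and gamma, and in sensory ganglia, whose neurons hold much chloride, they are known for depolarizing the cell when GABA binds. Glycine receptors are built the same way from alpha and beta subunits. AMPA, kainate and NMDA receptors are cation channels of 4 subunits opened by glutamate, the transmitter that sensory neurons themselves release. Kainate receptors with the Grik1 product are known for their place on small sensory neurons, and the delta subunits act mainly as synaptic adhesion partners of the cerebellins.

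Library totals were 22896330 to 24850289 counts in ko-alpha3, 21203919 to 26873361 in KO-beta, 19682595 to 24026025 in wt-alpha3 and 22085189 to 25841307 in WT-beta. Kpna4 was at 0.618 to 1.16 CPM (reads scaled to a common library size, here after TMM scaling for composition) in ko-alpha3 and at 68.2 to 82.8 CPM in the other 12 libraries, whereas a lost 3′ untranslated region is not checked by a count over the whole Kpnb1 gene. All 12 sensory neuron markers were present, with a summed level of 5410 to 11800 CPM. The summed reads of 4 genes of the Y chromosome, Uty, Kdm5d, Ddx3y and Eif2s3y, were at 104 to 146 CPM in 2 of 4 ko-alpha3, 4 of 4 KO-beta, 4 of 4 wt-alpha3 and 0 of 4 WT-beta libraries, and at 0 to 1.14 CPM in the rest. The embryos carry 1 stage label, but libraries differed in the globin ratio, log2 of Hbb-bh1 over Hbb-y, 2 globins that replace each other in this order in embryonic red cells, by up to 2.80 units. It was -5.06, -6.50, -5.83 and -3.70 in ko-alpha3 42, 50, 75 and 81, and it was -6.02, -6.27, -6.26 and -6.47 in KO-beta 398, 402, 406 and 411. It was -4.78, -6.48, -6.23 and -4.10 in wt-alpha3 45, 54, 55 and 79, and -5.13, -5.90, -6.36 and -6.40 in WT-beta 399, 401, 410 and 415. A higher ratio marks a library earlier in the globin switch. The 4 highest ratios were in ko-alpha3 81, wt-alpha3 79, wt-alpha3 45 and ko-alpha3 42, with both alpha3 groups spread widely and KO-beta within a narrow range. The cut between these 4 and the other 12 libraries falls in a small gap, from -5.06 in ko-alpha3 42 to -5.13 in WT-beta 399. All 4 are of the alpha3 line, so line and a high ratio cannot be told apart in ranges split this way. In ko-alpha3, libraries 42 and 81 were at 0.326 and 0.0428 CPM of Y-linked reads, against 146 and 133 CPM in 50 and 75. Within ko-alpha3 the ratio and the Y-linked reads therefore cannot be told apart. The part of Y-linked reads in the slopes below was not tested. Values of single libraries are given below in this same order of library numbers.

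The glutamate receptor families differ at 1 codon of the pore loop that sets calcium passage, and these stretches are shown because the levels below are read by family. The 27 bases around that codon, in capitals, were taken from the GENCODE M21 transcripts (GRCm38, the build mm10), in which the codon was found in 16 of the 18 glutamate receptor genes.
Gria1: ggggccttcatgCAGcaaggatgtgac
Gria2: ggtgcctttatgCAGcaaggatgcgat
Gria4: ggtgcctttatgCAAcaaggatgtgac
Grik1: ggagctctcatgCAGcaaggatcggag
Grik5: ggtggcttcatgCAGcagggctcggag
Grin1: ggcgtcctgctcAACtctggcattggg
Grin2d: gccctggtgttcAACaactccgtgcca
The AMPA, kainate and delta genes carry a glutamine codon there, CAG or in Gria4 CAA, and Grin1 and the 4 Grin2 genes carry the asparagine codon AAC. In Gria2, Grik1 and Grik2 messages this glutamine codon is a known site of A-to-I editing. Gene counts do not show whether the site was edited.

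Per length, kainate subunits held the largest share of the message of these 42 genes, ahead of GABA-A subunits. As the summed CPM per kb of exon, the kainate genes made up 45.0% (median of the 8 wild types, range 41.6 to 49.5%), the GABA-A genes 31.6% (25.1 to 33.8%), the AMPA genes 9.76% (8.09 to 11.7%), the NMDA genes 9.05% (8.47 to 10.6%), the glycine receptor genes 3.50% (2.29 to 4.46%) and the delta genes 1.28% (1.16 to 1.57%). A single gene, Grik5, which encodes a high-affinity kainate subunit that needs Grik1, Grik2 or Grik3 partners to form a channel, stood first in the wild types at 51.4 ± 7.38 CPM per kb (SD, n = 8). Further down, Gabra3 at 9.34 ± 3.08, Grin1 at 9.25 ± 4.13 and Grik1 at 8.72 ± 4.42 CPM per kb lay within each other's spread. Below them was Gria2 at 5.29 ± 0.987 CPM per kb, and then came Grik4 at 4.05 ± 1.36, Gria4 at 3.90 ± 0.697 and Gabra5 at 3.33 ± 0.717 CPM per kb, again within each other's spread. Near the bottom were Grin2b at 0.0389 and Grin2a at 0.0296 CPM per kb, the main NMDA partners of Grin1 in forebrain. Using the longest transcript as the length moved 8 genes, by at most 2 ranks.

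**Figure D1:**
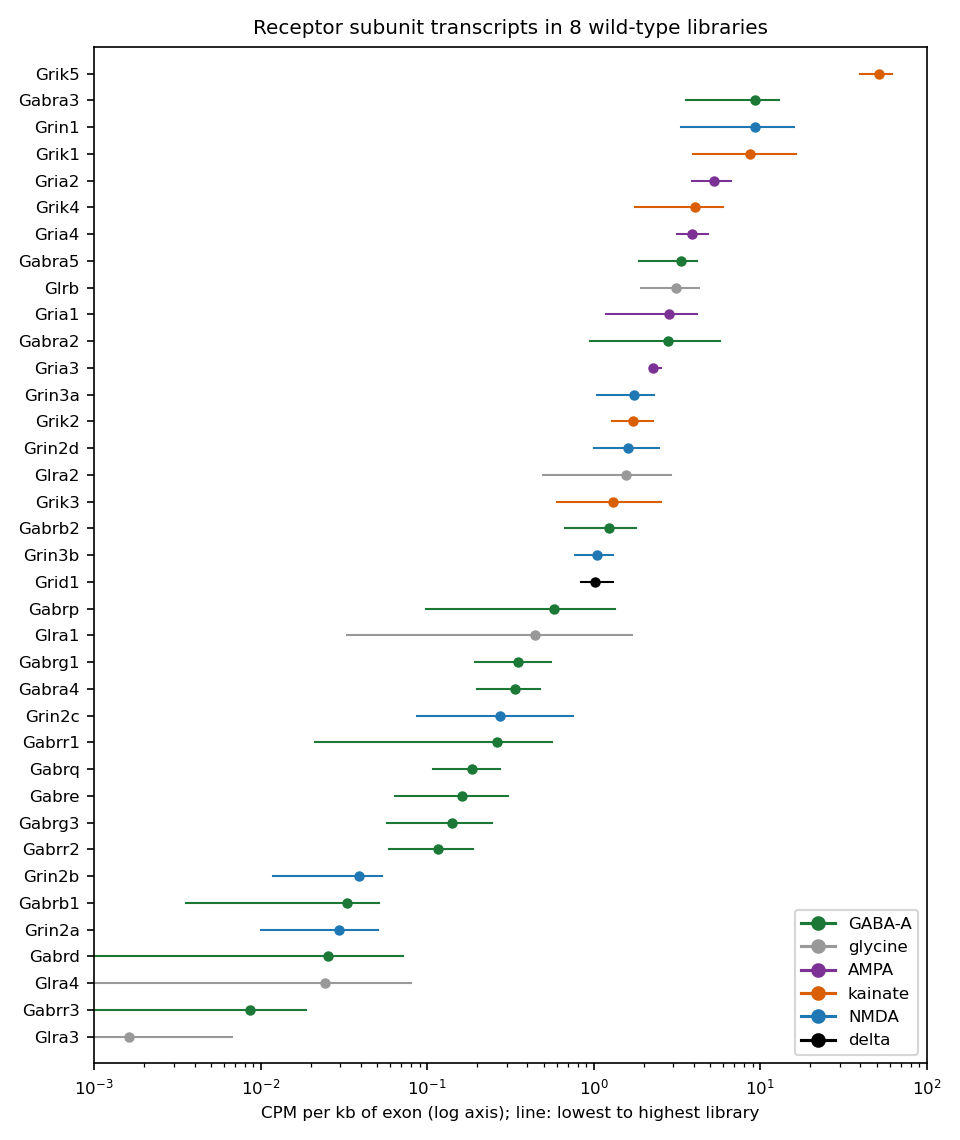
Levels of the reported subunit genes in CPM per kb of exon (log axis) in the 8 wild-type libraries, ordered by mean, with the range over libraries. Grik5 stands first at 51.4 CPM per kb, and a line that reaches the left edge marks a gene at 0 in at least 1 library.

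In several families 1 subunit prevailed. Over all 16 libraries and per kb, Gabra3 made up 47.8 to 68.7% of the alpha sum, Grik5 70.7 to 83.0% of the kainate sum and Grin2d, a slowly closing NMDA subunit of young neurons, 66.7 to 94.8% of the Grin2 sum. The AMPA family was more even: Gria2 made up 31.4 to 58% and Gria4 20 to 30.2% of it. Glrb, the beta subunit that ties glycine receptors to gephyrin, made up 43.9 to 84.9% of the glycine receptor sum, and Glra2, the embryonic alpha subunit, 11.1 to 45.8%.

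Grik5 (chromosome 7, 25009849 to 25072346, minus strand, GRCm38) was at 158, 235, 201 and 170.4 CPM in ko-alpha3 and 216, 195, 197 and 209 CPM in KO-beta. Wild-type Grik5 was at 183, 231, 231 and 149 CPM in wt-alpha3 and 178, 188, 203 and 185 CPM in WT-beta. Knockout and wild-type libraries overlapped, and the lowest value lay in wt-alpha3 79. Gria2 (chromosome 3, 80681450 to 80802835, minus strand), whose edited product blocks calcium passage, was at 65.8, 59.5, 68.2 and 55.0 CPM in ko-alpha3 and 71.6, 63.2, 44.1 and 60.1 CPM in KO-beta. Wild-type Gria2 was at 70.0, 52.5, 55.7 and 40.7 CPM in wt-alpha3 and 41.3, 59.0, 63.2 and 61.3 CPM in WT-beta, with no library or group apart.

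**Figure D2:**
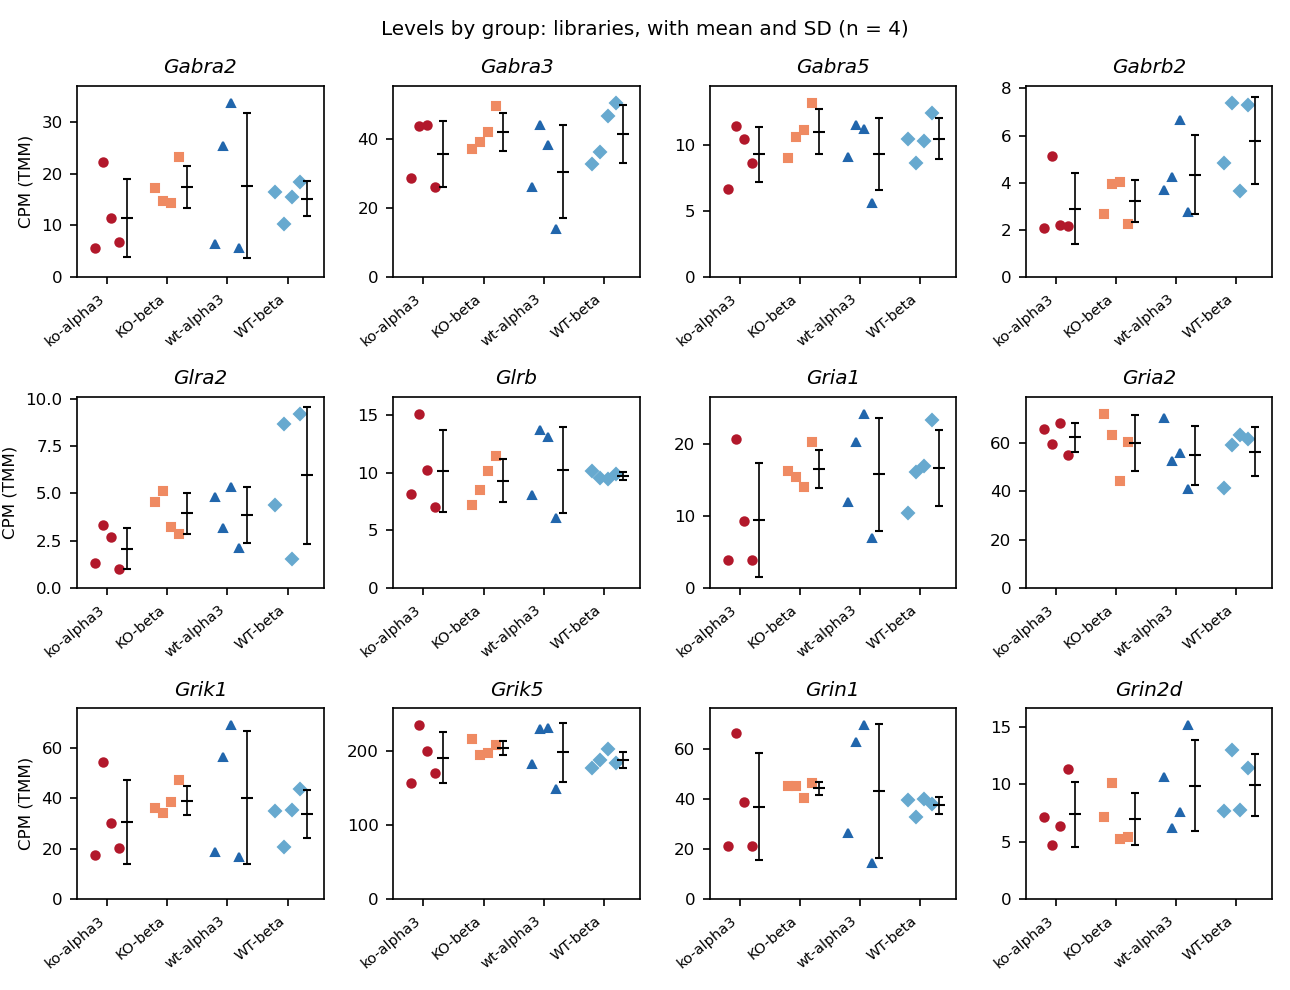
CPM of 12 subunit genes in each library (linear axis from 0), with ko-alpha3, KO-beta, wt-alpha3 and WT-beta side by side; points are libraries and bars are the group mean and SD (n = 4). In each panel the knockout and wild-type libraries overlap, and in Gabra3 and Grin1 both alpha3 groups are spread more widely than KO-beta.

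At the other end, 6 of the 42 genes did not pass the filter on low counts and were not tested: Gabra6, Gabrd, Gabrr2, Gabrr3, Glra3 and Glra4. In the wild types Gabrr2 averaged 0.224 ± 0.0928 CPM (SD, n = 8), and the other 5 averaged 0 to 0.049 CPM, below the 0.112 to 0.152 CPM that 3 reads amount to in a library. Gabra6, an alpha subunit of cerebellar granule cells, had reads in 1 library, KO-beta 398, at 0.0374 CPM. A level under that floor was not distinguishable from 0 at this depth. The other 36 genes passed among 15641 genes tested. Of the 42 genes, 13 share exon bases with another gene, among them Grin1 with 1307 bp shared with the antisense gene Grin1os and Grin2d with 421 bp. Such reads cannot be assigned between the genes, as the sources used here give no strand setting for the counting.

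Levels of most subunit genes moved with the globin ratio, whereas edgeR called 0 in either knockout and DESeq2 called 1, in ko-alpha3. In a fit with the ratio beside the 3 groups (ko-alpha3, KO-beta, wild types), 23 of the 36 tested genes (63.9%) passed the threshold of 0.05 on the adjusted p, against 45.4% of all genes tested. Of the 36, 20 (55.6%) were lower in libraries of higher ratio, where 25.4% of all genes were lower, and 3 (8.33%) were higher, where 20% of all genes were higher. The median slope of the 36 genes was -0.32 log2 per unit of ratio, with 28 negative, and that of all genes was -0.0057. By class, lower genes included 4 of 5 kainate, 2 of 4 AMPA, 2 of 7 NMDA and 1 of 3 glycine receptor genes tested. The summed level of all 42 genes was 476 to 631 CPM in the 4 libraries of highest ratio and 671 to 944 CPM in the other 12. In whole ganglia, fewer cells of a type and less RNA per cell cannot be told apart. Slopes below are in log2 CPM per unit of ratio.

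**Figure D3:**
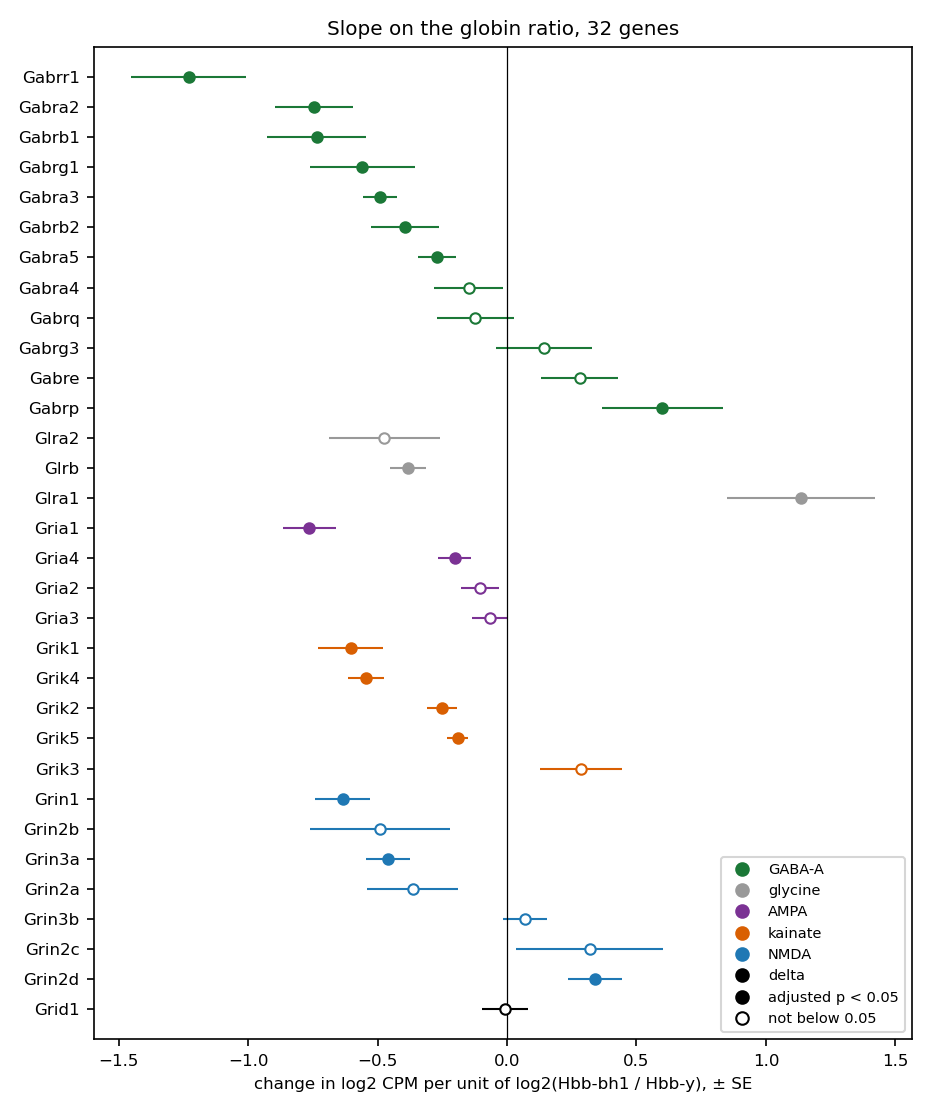
Slope of 32 tested subunit genes on the globin ratio (log2 CPM per unit of log2 Hbb-bh1/Hbb-y, with SE), ordered by class and slope and coloured by class; filled points passed the threshold. Slopes run from -1.23 in Gabrr1 to 1.14 in Glra1, with 16 of the 32 lower and 3 higher.

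Among GABA-A genes, Gabra3 (X chromosome, 72432681 to 72656848, minus strand), the leading alpha subunit of these ganglia, was at 28.8, 43.9, 44.2 and 26.2 CPM in ko-alpha3 and 37.2, 39.2, 42.1 and 49.6 CPM in KO-beta. Wild-type Gabra3 was at 26.0, 44.2, 38.3 and 13.9 CPM in wt-alpha3 and 32.7, 36.4, 46.7 and 50.4 CPM in WT-beta. The 4 libraries of highest ratio held 13.9 to 28.8 CPM and the other 12 held 32.7 to 50.4 CPM, and the slope was -0.49 ± 0.07 log2 (SE, adjusted p = 6.74e-05).

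The alpha2 subunit gene Gabra2 (chromosome 5, 70957597 to 71095849, minus strand) was at 5.55, 22.2, 11.5 and 6.73 CPM in ko-alpha3 and 17.2, 14.8, 14.3 and 23.1 CPM in KO-beta. Wild-type Gabra2 was at 6.38, 25.3, 33.6 and 5.54 CPM in wt-alpha3 and 16.4, 10.3, 15.5 and 18.4 CPM in WT-beta. All 4 libraries of highest ratio lay below the rest, at 5.54 to 6.73 CPM against 10.3 to 33.6 CPM, and the slope was -0.74 ± 0.15 log2 (SE, adjusted p = 0.00113). Gabrr1, a rho subunit best known from the retina, was at 0.0486 to 0.245 CPM in those 4 and 0.302 to 1.29 CPM in the other 12, with a slope of -1.23 ± 0.22 log2 (SE, adjusted p = 0.000494). Also lower were Gabra5, -0.27 ± 0.07 log2 (SE, adjusted p = 0.00652), Gabrb1, -0.74 ± 0.19 log2 (SE, adjusted p = 0.00578), Gabrb2, -0.39 ± 0.13 log2 (SE, adjusted p = 0.0236), and Gabrg1, -0.56 ± 0.20 log2 (SE, adjusted p = 0.036). One GABA-A gene was higher: Gabrp, the pi subunit known from epithelia, with 0.60 ± 0.24 log2 (SE, adjusted p = 0.0484). Gabra4, Gabre, Gabrg3 and Gabrq, subunits of less common receptors, did not pass, with slopes between -0.15 and 0.28.

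Many GABA-A genes lie in clusters of neighbouring subunit genes, which held called and uncalled genes side by side. On chromosome 5 (70751047 to 72149037), Gabrg1, Gabra2 and Gabrb1 were lower and Gabra4, with a slope of -0.15 ± 0.13, did not pass. On chromosome 4 (33062999 to 33163588), Gabrr1 was lower and its rho neighbour Gabrr2 was not tested. On the X chromosome (72255999 to 72842602), Gabra3 was lower, while Gabre, at 0.28 ± 0.15, and Gabrq, at -0.12 ± 0.15, did not pass. The differences between neighbours were not tested.

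Of the glutamate receptor genes, the delta gene Grid1 (chromosome 14, 34820108 to 35583379, plus strand) was at 3.63 to 6.61 CPM in the 4 libraries of highest ratio and 4.28 to 7.52 CPM in the other 12, and had a slope of -0.0077 ± 0.09 that did not pass, with a 95% interval of -0.18 to 0.17.

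**Figure D4:**
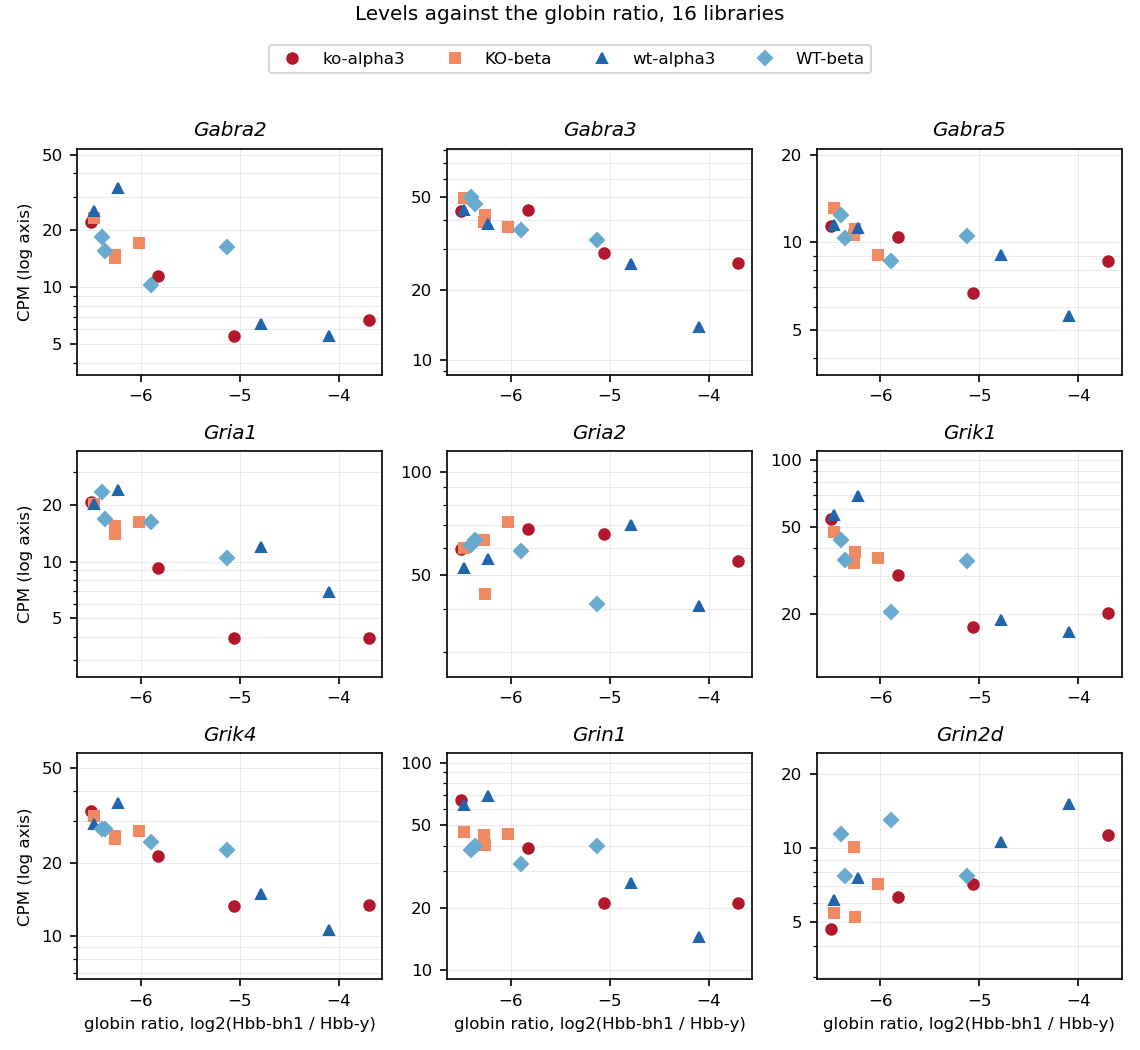
CPM (log axis) of 9 subunit genes against the globin ratio (log2 Hbb-bh1/Hbb-y) in each of the 16 libraries, marked by group. The 4 libraries furthest right, 2 of ko-alpha3 and 2 of wt-alpha3, lie below the other 12 in Grik1, Grik4, Gabra3, Gabra2 and Grin1.

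Among kainate genes, Grik1 (chromosome 16, 87895900 to 88290265, minus strand) was at 17.6, 54.3, 30.2 and 20.3 CPM in ko-alpha3 and 36.1, 34.1, 38.6 and 47.1 CPM in KO-beta. Wild-type Grik1 was at 18.8, 56.3, 68.8 and 16.7 CPM in wt-alpha3 and 34.9, 20.5, 35.5 and 43.4 CPM in WT-beta. Its levels spread more than those of Grik5, and the libraries of highest ratio held 16.7 to 20.3 CPM against 20.5 to 68.8 CPM in the others, with a slope of -0.60 ± 0.13 log2 (SE, adjusted p = 0.00136). Grik4 (chromosome 9, 42518135 to 42944493, minus strand), the other high-affinity subunit, was at 13.3, 33.0, 21.6 and 13.4 CPM in ko-alpha3 and 27.3, 26.0, 25.3 and 31.6 CPM in KO-beta. Wild-type Grik4 was at 14.9, 29.2, 35.8 and 10.6 CPM in wt-alpha3 and 22.7, 24.6, 27.9 and 27.7 CPM in WT-beta, and the 4 libraries of highest ratio stood apart from the rest, at 10.6 to 14.9 CPM against 21.6 to 35.8 CPM. Its slope was -0.54 ± 0.07 log2 (SE, adjusted p = 5.76e-05). Grik5 had a shallower one, -0.19 ± 0.04 log2 (SE, adjusted p = 0.00178), and Grik2 one of -0.25 ± 0.06 log2 (SE, adjusted p = 0.00251). Grik3 did not pass, at 0.29 ± 0.16 (adjusted p = 0.154), with 10.6 to 14.4 CPM in the 4 libraries of highest ratio and 5.21 to 22.8 CPM in the other 12.

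In the AMPA family Gria1 (chromosome 11, 57011387 to 57330244, plus strand), a subunit delivered to synapses with activity, was at 3.92, 20.8, 9.27 and 3.94 CPM in ko-alpha3 and 16.2, 15.5, 14.1 and 20.3 CPM in KO-beta. Wild-type Gria1 was at 11.9, 20.3, 24.2 and 6.90 CPM in wt-alpha3 and 10.4, 16.2, 16.9 and 23.4 CPM in WT-beta. Its range in the 4 libraries of highest ratio, 3.92 to 11.9 CPM, overlapped that of the others, 9.27 to 24.2 CPM, and the slope was -0.76 ± 0.10 log2 (SE, adjusted p = 6.66e-05). Gria4, an AMPA subunit of early development, was lower to a smaller degree, -0.20 ± 0.06 log2 (SE, adjusted p = 0.0168). Gria2 and Gria3 did not pass, with slopes of -0.10 ± 0.07 (95% interval -0.25 to 0.04) and -0.07 ± 0.07 (95% interval -0.20 to 0.06).

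Among NMDA genes Grin1 (chromosome 2, 25291181 to 25319187, minus strand), the subunit that every NMDA receptor needs, was at 21.1, 66.3, 39.0 and 21.1 CPM in ko-alpha3 and 45.3, 45.1, 40.4 and 46.3 CPM in KO-beta. Wild-type Grin1 was at 26.3, 62.6, 69.5 and 14.5 CPM in wt-alpha3 and 39.7, 32.6, 39.9 and 38.0 CPM in WT-beta. The libraries of highest ratio held 14.5 to 26.3 CPM and the others 32.6 to 69.5 CPM, without overlap, and the slope was -0.63 ± 0.11 log2 (SE, adjusted p = 0.000313). Its partner Grin2d (chromosome 7, 45831883 to 45878378, minus strand) had the opposite sign. It was at 7.18, 4.71, 6.35 and 11.4 CPM in ko-alpha3 and 7.18, 10.1, 5.25 and 5.44 CPM in KO-beta. Wild-type Grin2d was at 10.7, 6.18, 7.58 and 15.2 CPM in wt-alpha3 and 7.70, 13.0, 7.73 and 11.4 CPM in WT-beta. The ranges overlapped, at 7.18 to 15.2 CPM in the libraries of highest ratio and 4.71 to 13.0 CPM in the others, and the slope was 0.34 ± 0.10 log2 (SE, adjusted p = 0.0145). Grin3a, a subunit that lowers calcium passage, was lower, -0.46 ± 0.08 log2 (SE, adjusted p = 0.000585), whereas Grin2a, Grin2b, Grin2c and Grin3b did not pass.

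Among glycine receptor genes Glrb was lower, -0.38 ± 0.07 log2 (SE, adjusted p = 0.000585), at 6.07 to 8.16 CPM in the 4 libraries of highest ratio and 7.18 to 15.1 CPM in the other 12. Glra1 (chromosome 11, 55514238 to 55608198, minus strand), the alpha subunit of adult spinal cord, was at 0.122, 0.220, 0.0441 and 0.943 CPM in ko-alpha3 and 0.636, 0.548, 0.0947 and 0.0777 CPM in KO-beta. Wild-type Glra1 was at 0.928, 0.323, 0.607 and 4.08 CPM in wt-alpha3 and 0.503, 1.32, 0.0797 and 0.746 CPM in WT-beta. It was higher with the ratio, 1.14 ± 0.29 log2 (SE, adjusted p = 0.00468), but wt-alpha3 79, at 4.08 CPM, stood far above the rest. Glra2 did not pass, at -0.47 ± 0.22 (adjusted p = 0.0857).

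Some of these calls rested on single libraries. When each of the 16 libraries was left out in turn, 16 to 25 of the subunit genes passed, the fewest without wt-alpha3 79 and the most without WT-beta 401. The share of all genes that passed ran from 34.5%, also without wt-alpha3 79, to 47.4%, without WT-beta 399. Without wt-alpha3 79 the calls of Gabra5 (slope -0.17, adjusted p = 0.0758), Gria4 (-0.19, adjusted p = 0.0658), Gabrb2 (-0.33, adjusted p = 0.121), Gabrg1 (-0.56, adjusted p = 0.0858), Gabrp (0.46, adjusted p = 0.239), Grin2d (0.33, adjusted p = 0.0614) and Glra1 (0.88, adjusted p = 0.0865) were lost. Without ko-alpha3 50, Gria4 (-0.12, adjusted p = 0.146), Gabrb2 (-0.25, adjusted p = 0.191) and Gabrg1 (-0.29, adjusted p = 0.331) did not pass. Grin2d did not pass without ko-alpha3 81 either (0.32, adjusted p = 0.0567). Gabrb2 and Gabrg1 were also lost without wt-alpha3 45 (-0.36, adjusted p = 0.0566, and -0.53, adjusted p = 0.0678) or WT-beta 415 (-0.35, adjusted p = 0.055, and -0.53, adjusted p = 0.0594), and Gabrg1 without wt-alpha3 54 (-0.53, adjusted p = 0.0645) or wt-alpha3 55 (-0.51, adjusted p = 0.0619). Gabrp was lost without any 1 of 10 libraries, at slopes of 0.46 to 0.63. The other 16 calls, Grik4, Gria1, Gabra3 and Grin1 among them, held whichever 1 library was left out. Among the calls named here, those of Grin2d, Gabrg1 and Gabrp were lost with the spinal cord markers as a covariate. In the wild types alone, Grik2, Glra1, Grin2d, Gria4 and Gabrb2 did not pass.

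Genes that serve these receptors were mostly lower where they passed in the same fit, and metabotropic receptor genes were split. Of 25 genes for GABA and glycine supply, transport, anchoring and chloride balance, 13 were lower and 2 higher with the ratio, beside 25.4% lower and 20% higher among all genes. The lower ones included Lhfpl3 (log2 slope -0.93 ± 0.11 SE) and Lhfpl4 (-0.33 ± 0.06), of a family that binds GABA-A receptors, Slc12a2 (-0.33 ± 0.04), the chloride importer of sensory neurons, and Gabbr1 (-0.30 ± 0.06), a subunit of the metabotropic GABA receptor. Of 41 auxiliary, scaffold and release genes of glutamate receptors, 22 were lower and 5 higher, beside the same 25.4% and 20% among all genes. Lower were the AMPA receptor auxiliary gene Shisa9 (-0.79 ± 0.09), the kinase gene Camk2a (-0.59 ± 0.07), the cerebellin Cbln2 (-0.32 ± 0.04) and the kainate receptor auxiliary gene Neto2 (-0.39 ± 0.06). Of 7 metabotropic glutamate receptor genes tested, 4 passed, where 45.4% of all genes did: 2 were lower, Grm8 (-1.28 ± 0.15) and Grm7 (-1.99 ± 0.36), and 2 higher, Grm2 (1.81 ± 0.25) and Grm4 (0.28 ± 0.06).

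Sensory neuron and progenitor markers moved with the ratio as well. Among all genes, 25.4% were lower and 20% higher, the background for each marker count that follows. Of the 12 sensory neuron markers 7 were lower and 2 higher (median slope -0.20), and their mean was 8.03 to 8.49 log2 CPM in the 4 libraries of highest ratio and 8.48 to 8.97 log2 CPM in the other 12. All 10 progenitor and cycling markers were higher (median slope 0.67), with a summed level of 407 to 1570 CPM over the libraries. Their mean was 6.39 to 6.90 log2 CPM in the 4 libraries and 4.85 to 5.92 log2 CPM in the others, without overlap. Of 15 spinal cord markers tested 2 were higher (median slope 0.51), of 9 sympathetic markers 2 were higher and 1 lower (median slope 1.19), and of 6 glia and Schwann precursor markers 2 were lower (median slope 0.0093). Of 4 endothelium markers 1 was lower, and the 3 of 5 erythroid markers that were higher were globins, among them both that make up the ratio. No marker of skeletal muscle (8), epidermis (5), liver (5) or macrophages (4) passed. With the mean of the sensory neuron markers as a further covariate, 1 of the 36 genes passed, as did 2.78% of all genes. The median slope of the 36 was then -0.18, with 31 negative. Among genes picked after their values were seen, slopes with and without this covariate were -0.39 ± 0.22 and -0.39 ± 0.13 (SE) in Gabrb2, -0.64 ± 0.18 and -0.76 ± 0.10 in Gria1, and -0.42 ± 0.15 and -0.46 ± 0.08 in Grin3a, whereas those of Gabra2 were -0.096 ± 0.14 and -0.74 ± 0.15 and those of Grik1 -0.059 ± 0.13 and -0.60 ± 0.13. With the mean of the progenitor markers instead, 0 of 36 passed, against 0.185% of all genes, and the median slope was -0.054, with 20 negative. These covariates were chosen after seeing the data, and the ratio and the levels of neuron and progenitor markers cannot be told apart here. Without the 4 libraries highest in markers of other tissues (WT-beta 401, wt-alpha3 79, wt-alpha3 45 and WT-beta 399), 12 of 37 genes tested passed, all lower, and 20.6% of all genes did. The libraries left out had globin ratios of -5.90 to -4.10, and the remaining wild types were at -6.48 to -6.23. Marker level and globin ratio therefore cannot be told apart in this count.

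Loss of importin α3 left 0 of 36 genes past the threshold by edgeR (background 0.00639% of all genes), with 8 at an unadjusted p under 0.05 (22.2%, where 10.8% of all genes were). DESeq2 called 1 of the 36 (2.78%), against 0.818% of all genes. The median log2 fold change of ko-alpha3 over the 8 wild types was -0.34, with 31 negative, against -0.0059 for all genes. Without ko-alpha3 50 this median was -0.62 (33 negative), and without ko-alpha3 81, the library of highest globin ratio, it was -0.22 (29 negative). Gabrp (chromosome 11, 33550781 to 33578959, minus strand), the gene of lowest p, was at 0.245, 0.705, 0.132 and 0.600 CPM in ko-alpha3 and 2.09, 1.81, 0.947 and 0.428 CPM in KO-beta. Wild-type Gabrp was at 2.95, 0.323, 1.37 and 4.42 CPM in wt-alpha3 and 1.78, 1.74, 1.12 and 1.45 CPM in WT-beta. The ko-alpha3 libraries lay low but overlapped the wild types, and the fold change was -2.17 ± 0.63 log2 (SE, edgeR adjusted p = 0.33), or -2.17 ± 0.60 with DESeq2 (adjusted p = 0.045). Grin2c, an NMDA subunit of adult cerebellum, was at 0.326, 0.308, 0.309 and 0.428 CPM in ko-alpha3 and 0.299, 0.717, 0.426 and 0.311 CPM in KO-beta. Wild-type Grin2c was at 3.79, 0.507, 0.506 and 0.875 CPM in wt-alpha3 and 1.01, 1.13, 2.75 and 0.439 CPM in WT-beta. The ko-alpha3 values all lay below those of the wild types, but only just. The highest in ko-alpha3, 0.428 CPM, and the lowest in the wild types, 0.439 CPM, each rested on 10 reads. The fold change of Grin2c in ko-alpha3 was -2.00 ± 0.60 (adjusted p = 0.33). Gabra4, an alpha subunit of extrasynaptic receptors, came next in order of p.

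Gabra4 (chromosome 5, 71569749 to 71658308, minus strand) was at 0.653, 0.969, 1.06 and 0.643 CPM in ko-alpha3 and 1.08, 0.674, 0.663 and 0.816 CPM in KO-beta. Wild-type Gabra4 was at 1.41, 0.830, 1.37 and 1.41 CPM in wt-alpha3 and 0.851, 1.96, 1.99 and 1.49 CPM in WT-beta. Libraries of both knockouts overlapped the wild types, and the fold change was -0.78 ± 0.27 in ko-alpha3 (adjusted p = 0.366) and -0.79 ± 0.27 in KO-beta (adjusted p = 0.932). Markers of other tissues were low in ko-alpha3. The summed 19 spinal cord markers were at 12.9 to 19.6 CPM in ko-alpha3, 11.2 to 31.6 CPM in KO-beta, 18.3 to 109 CPM in wt-alpha3 and 17.7 to 132 CPM in WT-beta, and the 5 epidermis markers at 2.40 to 8.64, 7.39 to 16.1, 7.42 to 18.8 and 8.45 to 28.6 CPM in the same 4 groups. Their ranges in ko-alpha3 overlapped those of the wild types, and their part in the values of Gabrp, Grin2c and Gabra4 was not tested. Without the 4 libraries highest in such markers the median fold change of the subunit genes was -0.53 in ko-alpha3 and -0.23 in KO-beta. Those 4 libraries are all wild types, with globin ratios of -5.90 to -4.10, and the wild types that remain were at -6.48 to -6.23. Marker level and globin ratio of the wild types therefore cannot be told apart in these medians.

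Loss of the Kpnb1 3′ untranslated region likewise left 0 of 36 genes past the threshold by edgeR (0% of all genes) and 0 by DESeq2 (0.00639% of all genes), with 2 of 36 at an unadjusted p under 0.05 (5.56%, against 2.23% of all genes). The median was 0.014, with 18 positive and 18 negative, and it was below 0 without KO-beta 411 (-0.092), wt-alpha3 45 (-0.045), wt-alpha3 79 (-0.061) or WT-beta 399 (-0.056), with library size as the scaling (-0.0067) and with Y-linked reads as a covariate (-0.19). Lowest in p were Gabra4, given above, Grin2c, at -1.64 ± 0.58, and Gabrb2, at -0.64 ± 0.32, each with an adjusted p of 0.932. Gabrb2 (chromosome 11, 42419757 to 42629028, plus strand), the beta subunit common in adult brain, was at 2.08, 5.15, 2.21 and 2.19 CPM in ko-alpha3 and 2.69, 3.96, 4.02 and 2.25 CPM in KO-beta. Wild-type Gabrb2 was at 3.71, 4.24, 6.67 and 2.77 CPM in wt-alpha3 and 4.83, 7.37, 3.67 and 7.28 CPM in WT-beta, and the groups overlapped. In counts simulated for the ko-alpha3 comparison, a change of 0.5 log2 was recovered in 46% of 200 changed genes and a change of 1 log2 in 84%. These counts held no globin effect, and their spread was the one left after the globin ratio was fitted. The comparison itself had no ratio term, so its recovery can be lower. A difference of 0.5 log2, and larger ones too, can be missed with these libraries.

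The median globin ratio was -5.44 in ko-alpha3, -6.26 in KO-beta, -5.51 in wt-alpha3 and -6.13 in WT-beta, and with the ratio as a covariate the medians of the 36 genes were -0.21 in ko-alpha3 and -0.18 in KO-beta, with 27 negative in each. None of the 36 passed in that fit in either knockout. Of the related genes, 0 passed in either knockout, and those of lowest p in ko-alpha3 were Slc32a1 (-3.58 ± 0.81) and Gad1 (-3.30 ± 0.90), which load and make GABA and which stand in the spinal cord list, and the scaffold genes Shank1 (-1.73 ± 0.39) and Dlg2 (-0.96 ± 0.30). In KO-beta they were Slc32a1 (-1.51), Gad2 (-1.31), Shank1 (-1.04) and Cacng3 (-2.02), an AMPA receptor auxiliary gene, all with an adjusted p of 0.932. Of the metabotropic receptors, Grm5 was at -0.69 ± 0.34 in ko-alpha3 and Grm2 at -1.84 ± 1.11 in KO-beta.

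**Figure D5:**
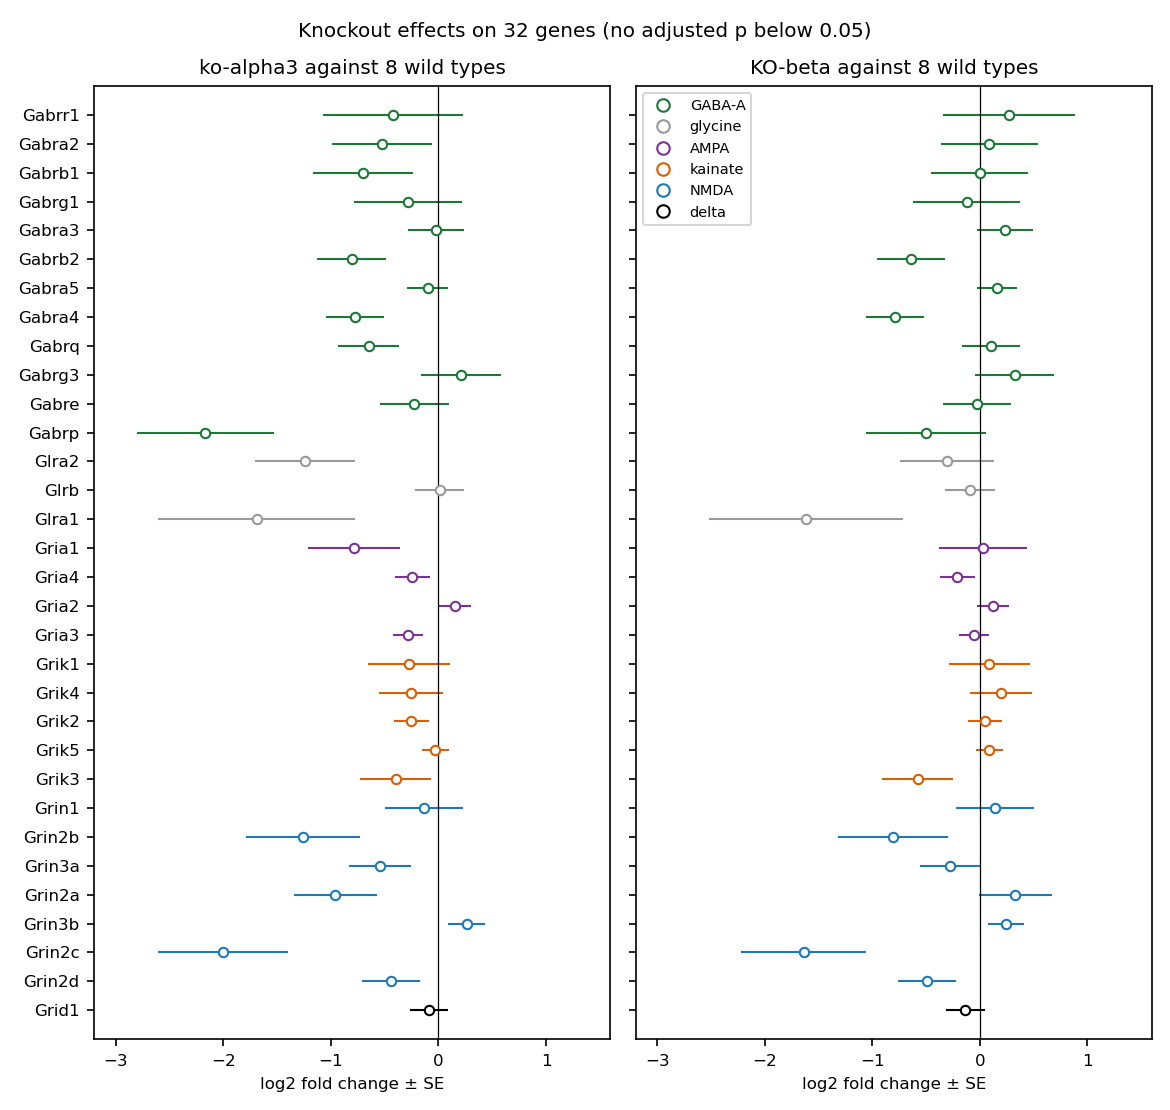
Log2 fold change of 32 tested subunit genes in ko-alpha3 and in KO-beta over the same 8 wild types, with SE. Of these, 28 lie below 0 in ko-alpha3 and 17 in KO-beta, and none passed the edgeR threshold.

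The wild types of the 2 lines gave 0 of 36 genes past the threshold (0.0192% of all genes, 0.0128% lower in wt-alpha3), with 0 of 36 at an unadjusted p under 0.05, where 5.27% of all genes were, and none by DESeq2 (0.205% of all genes). The lowest p in wt-alpha3 over WT-beta were those of Gabra3 (-0.42 ± 0.29), Glra1 (1.18 ± 0.92, and -0.082 without wt-alpha3 79) and Glra2 (-0.60 ± 0.49), each with an adjusted p of 1. Line and the level of Y-linked reads cannot be told apart in this comparison. The knockout effects, each against the wild types of its own line, differed in 0 of 36 genes (0.00639% of all genes), with 1 at an unadjusted p under 0.05 (2.78%, against 1.22% of all genes) and none by DESeq2 (0.0384% of all genes). That gene was Gabrp, at -2.26 ± 0.93 log2 (adjusted p = 0.996), followed by Grin2a, at -1.08 ± 0.60, and Gabrq, at -0.65 ± 0.46. Y-linked reads were above 10 CPM in 4 of 4 KO-beta and 0 of 4 WT-beta libraries. Knockout and the level of Y-linked reads therefore cannot be told apart within the beta line. Every value of this difference between knockout effects, those of Gabrp, Grin2a and Gabrq included, carries that limit.

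A stretch of 1 promoter is shown because RE1 elements are a known feature of neuronal channel genes. Among 29 of the 42 genes with an entry in RefSeq's promoter table (GRCm38.p6, 250 bases before to 50 after the start), both strands were searched for the core of this element, AGCACC, any 2 bases, then GGACAG, to which the repressor REST binds. One gene held a match, Gria2, against 16 of 27025 genes (0.0592%). The longer forms with C (11 genes, 0.0407%) or TTC (4 genes, 0.0148%) before that core overlap it and matched 0 of the 29. The 28 bases at chr3:80802985-80803012 on the minus strand hold the match in capitals, read on the reverse strand.
Gria2 promoter: caaagcgCTGTCCGCGGTGCTaaaatcg
Gria2 was among the AMPA genes whose slope did not pass, and a match of letters is a description of the sequence and not of binding.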

How the data were processed

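The submitters' processing notes name, with no roles given, the build mm10 and the tools HTSeq 0.6.1p1, TopHat2 2.0.10, DESeq2 1.6.3, bcl2fastq 2.17.1.14 and cutadapt. Per the labels' protocols, lumbar ganglia were taken and an in-house polyA protocol was used. Every test used the raw read counts that the authors deposited, 1 whole number per symbol and library. A deposited normalized table was not used here. No annotation, filter or strand setting is given in the sources used here, and how reads that fit several gene copies were counted is therefore uncertain.

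From the counts, R 4.3.3 with edgeR 4.0.16 gave CPM after TMM scaling, a low-count filter (filterByExpr at a count of 10 and a total of 15) that kept 15641 genes, and 2-sided quasi-likelihood tests with Benjamini-Hochberg adjustment over all genes tested at 0.05. Every adjusted p is edgeR's unless DESeq2 is named. A 3-group fit set each knockout against all 8 wild types. A 4-group fit gave wt-alpha3 over WT-beta and the difference of the knockout effects. The globin ratio was log2 of Hbb-bh1 over Hbb-y, each as CPM plus 1, beside the 3 groups. Pairs of libraries differed by more than sampling noise (chi-square per degree of freedom 6.57 to 145 within groups and 6.22 to 153 between groups). None was therefore a repeat sequencing of another library. This does not show that libraries came from separate embryos or pools. Lengths and positions came from GENCODE M21 (GRCm38), in which all 42 genes were matched. The fits were tested on simulated data.

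The 42 genes, the related lists and the markers were chosen with earlier results of these data known. Statistics are named for genes that passed a comparison, or for the 3 of lowest p where fewer than 3 passed. From each related list up to 4 that passed are named, or else the 2 of lowest p. The text describes further genes by level, and the results of some genes are not reported here. Alternatives were other scalings, no filter, DESeq2 1.42.0, limma-voom (limma 3.58.1), other group terms and covariates, and leaving out each library in turn or sets of libraries.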

Additional observations from a re-analysis of the deposited data

Results flagged for a closer look

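For each of 32 tested genes, the 4 libraries of each group were searched for 1 library far from the other 3. Of 128 groups, 9 held one, and chance alone gives about 1 in 20. In ko-alpha3, Gabrb2 was at 5.15 CPM in library 50 (the others at 2.08 to 2.21), Grin2b at 1.06 CPM in library 75 (0.163 to 0.22) and Grin2c at 0.428 CPM in library 81 (0.308 to 0.326). In KO-beta, Grik3 was in library 411 at 5.21 CPM (8.39 to 8.90). In wt-alpha3, Gabra4 was at 0.83 CPM in library 54 (1.37 to 1.41), Glra1 at 4.08 CPM in library 79 (0.323 to 0.928) and Grin2c at 3.79 CPM in library 45 (0.506 to 0.875). In WT-beta, Gabre was at 1.02 CPM in library 401 (0.541 to 0.57) and Grin2b at 0.757 CPM in library 410 (1.24 to 1.32).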

How the results depend on the processing

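No paired analysis was possible because no library number is shared between groups and the labels name no litter or day. The counts of 0 of 36 genes in the 4 group comparisons held under every alternative run with edgeR or limma-voom, and DESeq2 called 1, Gabrp, in ko-alpha3. The slope count was 23, with 45.4% of all genes called. Under the other scalings, filter, tools, group terms and pseudocount it was 22 or 23 (33.7 to 49.4% of all genes). It was 21 with the spinal cord markers as a covariate (33.6%) and 17 in the wild types alone (33.7%). When each library was left out it was 16 to 25 (34.5 to 47.4%). It was 12 without the 4 libraries highest in markers of other tissues (20.6%), where marker level and globin ratio cannot be told apart. In alternatives added after seeing the data it was 16 without the 2 libraries of highest globin ratio (30.9%). It was 1 with the sensory neuron covariate (2.78%) and 0 with the progenitor covariate (0.185%), likewise added after seeing the data. The cause was not tested. Higher and lower slopes over all genes were 3131 and 3966 with TMM, 3400 and 3661 with DESeq2 size factors, and 3473 and 3541 with library size alone. Under the progenitor covariate these slopes changed sign: Grik4 0.0073, Grin1 0.22, Gabrr1 0.20, Glrb 0.010, Gabra2 0.60, Grik1 0.52, Grik5 0.096, Gabra5 0.16, Grin2d -0.013, Gria4 0.10, Gabrg1 0.65, Lhfpl4 0.23, Gabbr1 0.24, Neto2 0.15 and Grm7 0.55. In KO-beta, Cacng3 was 0.22 and Grm2 0.22 without the 4 libraries, and Grm2 was 0.054 with the globin covariate. In wt-alpha3 over WT-beta, Grm2 was -1.88 without the 4 libraries, and Glra1 ran from -0.082 (without wt-alpha3 79) to 1.78. At 19682595 to 26873361 counts a library, genes under about 1 CPM rest on few reads, so that Gabrp in ko-alpha3 had 3 to 16.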
